A study of Mus musculus with 4 samples.

Results

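The Krüppel-like factor (Klf) genes measured here were Klf2, Klf3, Klf4, Klf6, Klf7, Klf9, Klf10, Klf12 and Klf13, 9 of the 24411 genes in the deposited tables, taken by name from the raw expected-count and TPM tables. All 9 passed the filter on low counts, as did 12244 genes in all. The libraries came from hematopoietic stem cells of C57BL/6 mice, 2 from Dis3-/- (Dis3fl/fl;Mx-Cre) and 2 from wild-type (Dis3fl/fl, without Cre) marrow, with 2 mice per genotype in the design text. Both groups were radiation chimeras: lethally irradiated CD45.1 mice had received marrow of either genotype, and 4 weeks later Cre was switched on with pIpC (an RNA mimic that triggers interferon) at 300 µg on days 0 and 2. The pIpC injections stand in a protocol common to all samples, so the wild-type mice are taken to have received it too. Day 4 was the day of the sort, which took Lineage- EPCR+ CD150+ CD48- cells, 100 per library. Cre was driven by the interferon-inducible Mx promoter, which is not specific to blood cells although the design text calls the deletion hematopoietic, and the sort as labelled names no marker that tells donor from host cells. The labels state no ages.

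Krüppel-like factors are transcription factors that bind GC boxes and CACCC boxes in DNA through 3 zinc fingers at the C-terminal end of the protein. Some, such as Klf3 and Klf12, recruit the corepressor CtBP; Klf9, Klf10 and Klf13 can recruit Sin3 and its histone deacetylases; and Klf2, Klf4, Klf6 and Klf7 act mostly as activators, though Klf4 can also repress. In blood the family is known for control of quiescence and trafficking of lymphocytes (Klf2), of monocyte differentiation (Klf4) and of red cell and B cell genes (Klf3, Klf13).

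The part of the coding sequence that the 9 genes share is the zinc finger region, 243 bases in each. Any 2 members had 57.2% to 81.1% of these bases in common (36 pairs, median 65.4%), and 86 bases were the same in all 9. The closest pair was Klf6 and Klf7 with 81.1%. Klf2 with Klf4, and Klf3 with Klf12, shared 78.2% each. The third finger is shown for every member, since it displays both the shared frame and the differences by which reads can be assigned. Capitals mark the 21 of 63 bases that were identical in all 9 (GENCODE M21 transcripts, GRCm38, coding strand, 5′ to 3′).
Klf3: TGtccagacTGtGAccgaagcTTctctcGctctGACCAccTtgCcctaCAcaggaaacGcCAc
Klf12: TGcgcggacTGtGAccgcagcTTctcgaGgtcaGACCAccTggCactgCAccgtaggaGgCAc
Klf9: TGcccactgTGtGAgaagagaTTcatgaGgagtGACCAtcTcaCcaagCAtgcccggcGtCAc
Klf10: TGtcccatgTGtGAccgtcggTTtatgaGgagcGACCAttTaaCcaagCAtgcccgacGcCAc
Klf13: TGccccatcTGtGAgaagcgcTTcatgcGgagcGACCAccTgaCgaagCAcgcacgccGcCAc
Klf2: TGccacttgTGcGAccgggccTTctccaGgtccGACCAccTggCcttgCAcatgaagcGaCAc
Klf4: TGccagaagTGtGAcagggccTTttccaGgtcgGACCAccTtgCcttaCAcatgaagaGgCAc
Klf6: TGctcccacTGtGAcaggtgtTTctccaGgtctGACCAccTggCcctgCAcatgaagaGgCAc
Klf7: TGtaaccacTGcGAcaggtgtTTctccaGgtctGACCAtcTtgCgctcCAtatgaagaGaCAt

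Between whole transcripts the longest stretch of identical bases in any pair was 26, again in Klf6 and Klf7. The expected counts of all 9 genes in all 4 libraries, 36 values, were exact whole numbers, as they are where no read is divided between genes. Genes annotated on the opposite strand overlap exons of Klf3 (Gm20033) and of Klf7 (Gm26649 and Gm13748), and the strand setting is not given, so reads of these partners cannot be told apart from Klf3 and Klf7 reads.

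The 4 libraries held 6085367 and 6442740 counts in the Dis3-/- group and 6818535 and 6251761 in the wild-type group. The members together took 5678 and 6720 of them in Dis3-/- libraries, against 7777 and 9148 in wild-type libraries. Counts are given below as CPM, read counts scaled to library size with TMM factors, which serve to compare genotypes; 3 counts, the limit that a count of 0 allows, correspond to 0.432 to 0.505 CPM. Levels of different genes are compared in TPM, which accounts for transcript length. The targeted gene Dis3 had 23.6 and 30.2 CPM in Dis3-/- libraries, against 55.9 and 53.2 CPM in wild-type libraries (log2 fold change -1.02 ± 0.14 SE, edgeR adjusted p = 2.58e-04). Reads of the remaining part of Dis3 count too, and the labels do not say which exons were floxed. The expected counts of Dis3 were not whole numbers, so its level also depends on how reads were divided with the overlapping gene Pibf1. All 8 listed stem cell markers were detected, with a summed level of 2170 to 2220 CPM in Dis3-/- and 2770 to 3140 CPM in wild-type libraries. Kit, Hlf and Fgd5 were lower and Ly6a higher in Dis3-/- cells. Among markers of other cells, the monocyte and macrophage list summed to 201 to 211 CPM against 224 to 250 CPM, the endothelial list to 226 to 276 against 285 to 382 CPM and the granulocyte list to 21.1 to 23.9 against 30.6 to 35.4 CPM, Dis3-/- first in each. In the same order, the erythroid list summed to 6.25 to 7.91 against 12.5 to 12.9 CPM, the megakaryocyte list to 34.7 to 65.5 against 64.8 to 79.9 CPM and the stromal list to 6.23 to 9.69 against 22.2 to 34.0 CPM. The B cell list summed to 11.8 to 13.9 against 14.8 to 16.2 CPM and the T and NK cell list to 64.3 to 83.7 against 61.5 to 86.7 CPM. Several sums rested on few genes. Over the 4 libraries, Vwf (88.7 to 181 CPM), Pecam1 (65.05 to 112.1 CPM) and Tek (46.1 to 65.1 CPM) made up most of the endothelial sum. Cdh5 of the same list had 0 to 2 counts. Nkg7 (60.5 to 85.0 CPM) made up most of the T and NK cell sum, and Lyz2 (168 to 198 CPM) most of the monocyte and macrophage sum. Hbb-bs, Car1, Ctsg, Ly6c2, Ebf1, Ms4a1, Cd3e and Cd3g were at 0 in all 4 libraries. The part of these markers in the Klf values was not tested, and in sorted bulk samples fewer cells of a type and less RNA per cell cannot be told apart.

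In Dis3-/- stem cells 4 of the 9 Klf genes were lower than in wild-type cells and 0 were higher. Over all 12244 tested genes 10.2% were called lower, 12.7% higher and 23.0% in either direction (edgeR quasi-likelihood test, adjusted p below 0.05). The members were chosen with earlier results of these data known, so these shares do not test an excess. On log2(TPM + 1) the split over all genes was 794 higher and 936 lower, against 1561 higher and 1250 lower in the count test. The members that fell were Klf12, Klf13, Klf9 and Klf10. The median log2 fold change of the 9 genes was -0.51, and 8 of 9 values lay below 0, beside a median of 0.00 over all tested genes, of which 50.3% lay below 0. In 6 of the 9 genes both Dis3-/- libraries lay below both wild-type libraries, a pattern found in 30.5% of all tested genes. At an unadjusted edgeR p under 0.05, 6 members were lower and 0 higher, and no count over all genes was taken at that p. DESeq2 called 3 members lower and 0 higher, beside 742 lower and 1000 higher of all 12244 genes. With limma-voom 4 members were lower and 0 higher, beside 1245 lower and 1556 higher of the same genes. Without wild-type replicate 2 the count of called members was 2, Klf12 and Klf13.

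**Figure D1:**
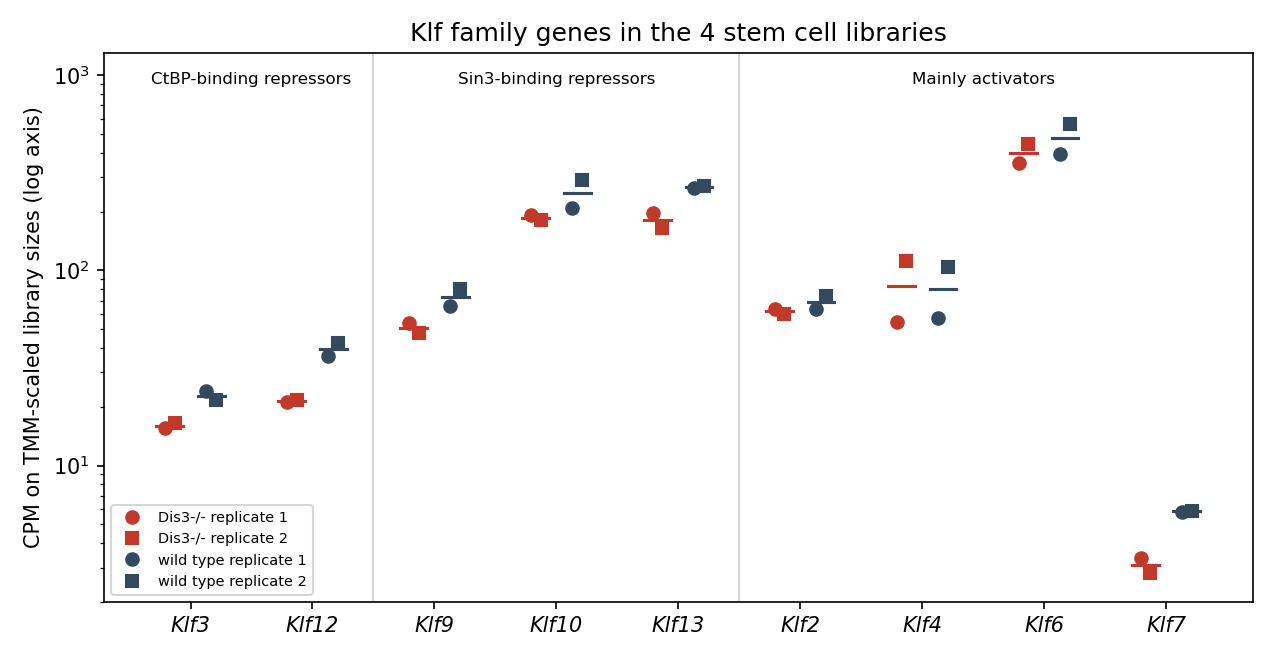
CPM on a log axis for the 9 Klf genes in each library, Dis3-/- (red) left of wild type (dark), circles for replicate 1, squares for replicate 2 and bars for the mean of 2 libraries. The libraries of the 2 genotypes are separate for Klf3, Klf12, Klf9, Klf10, Klf13 and Klf7, and overlap for Klf2, Klf4 and Klf6.

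Among the members, the Sin3-binding repressor genes Klf9, Klf10 and Klf13 were all called lower in Dis3-/- cells (3 of 3, beside 10.2% over all tested genes). The members were chosen with earlier results known, so this share does not test an excess either. DESeq2 called 2 of these 3 genes, Klf9 and Klf13. Outside the member list, the tested genes Klf11 (-0.28, edgeR adjusted p = 0.213) and Klf16 (-0.07, edgeR adjusted p = 0.841) were not called. Klf13, which encodes a regulator of lymphocyte chemokine genes, had 1164 and 1054 counts in Dis3-/- libraries, against 1831 and 1710 counts in wild-type libraries. This gave 196 and 165 CPM in Dis3-/- cells and 264 and 272 CPM in wild-type cells. Both Dis3-/- libraries lay well under both wild-type libraries, and the wild-type pair was the closer one. The mean was 180 ± 22.0 CPM against 268 ± 5.49 CPM (SD, n = 2 each), and the log2 fold change -0.57 ± 0.09 (SE, edgeR adjusted p = 5.68e-04). Klf13 had the smallest p of the family and was called in each of the 13 alternative settings tried. The annotated coding gene E030018B13Rik lies on the opposite strand within the span of Klf13, without overlap of exons.

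Klf9 encodes a factor that glucocorticoids and thyroid hormone induce. It had 319 and 304 counts in Dis3-/- libraries, against 458 and 505 counts in wild-type libraries, which came to 53.7 and 47.5 CPM in Dis3-/- cells and 66.0 and 80.2 CPM in wild-type cells. The 2 genotypes did not overlap, although the wild-type libraries stood further apart than the Dis3-/- ones. Klf9 was at 69.3% of its wild-type level (log2 fold change -0.53 ± 0.12 SE, edgeR adjusted p = 7.96e-03). Without wild-type replicate 2 its value was -0.39 and it was not called (edgeR adjusted p = 0.0721).

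Klf10, known as a gene that TGF-beta induces early and that dampens Smad7 transcription, had 1143 and 1155 counts in Dis3-/- libraries, against 1444 and 1827 counts in wild-type libraries. Its levels were 192 and 181 CPM in Dis3-/- cells and 208 and 290 CPM in wild-type cells. The Dis3-/- libraries were close to each other, and wild-type replicate 1 was only slightly above them. Klf10 had a log2 fold change of -0.42 ± 0.12 (SE, edgeR adjusted p = 0.0236). This call rested on wild-type replicate 2: without it the value was -0.16 (edgeR adjusted p = 0.321), and without wild-type replicate 1 it was -0.64. Klf10 was not called either without Dis3-/- replicate 2 (-0.37, edgeR adjusted p = 0.067), with DESeq2 (adjusted p = 0.266) or with robust empirical Bayes in edgeR (adjusted p = 0.134).

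Of the 2 CtBP-binding repressor genes among the members, Klf12 fell. Klf12 had 126 and 139 counts in Dis3-/- libraries, against 254 and 268 counts in wild-type libraries. In CPM it stood at 21.2 and 21.7 in Dis3-/- cells and at 36.6 and 42.6 in wild-type cells. The Dis3-/- libraries were almost equal, and both were far under the wild-type ones. Klf12 was at 54.3% of its wild-type level, the lowest ratio among the called members (log2 fold change -0.88 ± 0.15 SE, edgeR adjusted p = 1.07e-03). The value ranged from -0.98 to -0.77 when a library was left out, and the call held each time.

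Klf3, a repressor that is also transcribed from a promoter under Klf1 control in erythroid cells, had 93 and 105 counts in Dis3-/- libraries, against 167 and 136 counts in wild-type libraries. The levels were 15.7 and 16.4 CPM in Dis3-/- cells and 24.1 and 21.6 CPM in wild-type cells. The genotypes did not overlap, but the difference did not pass (log2 fold change -0.51 ± 0.18 SE, 95% interval -0.90 to -0.12, edgeR adjusted p = 0.0556). Klf3 thus lay just outside the threshold, with a fold change close to those of Klf13 and Klf9 and fewer reads. Klf12 was called and Klf3 was not; whether their responses differ was not tested.

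Of the 4 members that act mainly as activators, 0 were called by edgeR, beside 23.0% of all tested genes called in either direction. DESeq2 and limma-voom, with 1742 and 2801 of 12244 genes called, also called 0 of the 4. Whether these members differ from the repressor genes was not tested. Among the 4, 1 had an unadjusted edgeR p under 0.05. That gene was Klf7, a factor best known from neurons, with 20 and 18 counts in Dis3-/- libraries, against 40 and 37 counts in wild-type libraries. It stood at 3.37 and 2.81 CPM in Dis3-/- cells and at 5.76 and 5.88 CPM in wild-type cells. The groups were well apart, and the estimate was the lowest of the family but the least precise, with the fewest reads of all members (log2 fold change -0.91 ± 0.39 SE, 95% interval -1.75 to -0.07, edgeR adjusted p = 0.109).

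Klf2, which keeps lymphocytes quiescent and drives genes of their trafficking, had 63.6 and 59.6 CPM in Dis3-/- libraries, against 63.4 and 73.8 CPM in wild-type libraries. Dis3-/- replicate 1 was level with wild-type replicate 1. The log2 fold change was -0.15 ± 0.11 (SE, 95% interval -0.40 to 0.09, edgeR adjusted p = 0.362), so a fall of the size seen for Klf13 lies outside the interval.

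Klf6, a tumour suppressor gene that responds quickly to growth signals, had 356 and 446 CPM in Dis3-/- libraries, against 396 and 563 CPM in wild-type libraries. In both genotypes replicate 2 was the higher library, and the genotypes overlapped. The log2 fold change was -0.26 ± 0.13 (SE, 95% interval -0.54 to 0.03, edgeR adjusted p = 0.184). It passed once wild-type replicate 1 was dropped (-0.49, edgeR adjusted p = 2.42e-03) and once Dis3-/- replicate 2 was dropped (-0.43, edgeR adjusted p = 0.0281), and was 0.02 without wild-type replicate 2. With the replicate number as a block, Klf6 was called as well (-0.25, edgeR adjusted p = 0.0492).

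Klf4, one of the reprogramming factors, had 54.2 and 111 CPM in Dis3-/- libraries, against 56.8 and 104 CPM in wild-type libraries. Replicate 2 was about as far above replicate 1 in one genotype as in the other, and the genotypes covered the same range. The log2 fold change was 0.06 ± 0.27 (SE, 95% interval -0.53 to 0.64, edgeR adjusted p = 0.908). Its sign turned on TPM values and with the library left out: it was -0.56 without Dis3-/- replicate 2 and 0.48, a called value, without Dis3-/- replicate 1 (edgeR adjusted p = 4.95e-03).

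**Figure D2:**
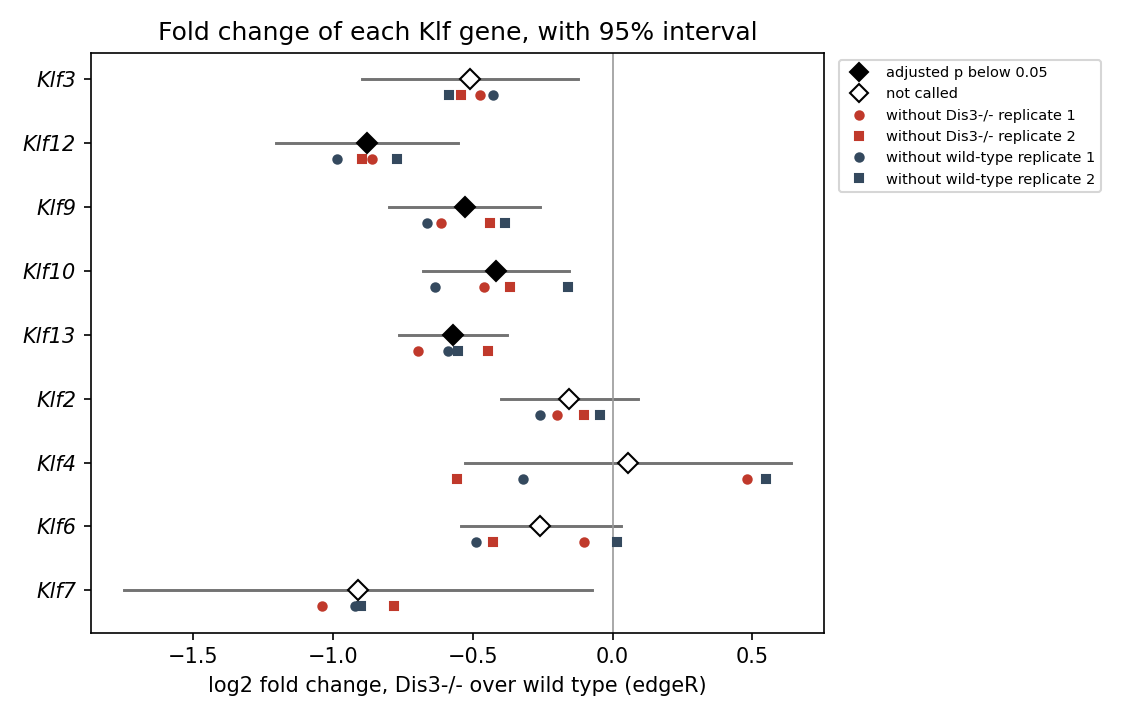
Log2 fold change (Dis3-/- over wild type) of each Klf gene with its 95% interval (diamonds and lines), filled where the edgeR adjusted p was below 0.05; the small symbols under each line give the value without 1 library. Klf12 and Klf13 stay well below 0 in every case, whereas Klf4 spans -0.56 to 0.55 and Klf6 -0.49 to 0.02.

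Klf4 and Klf6 were higher in replicate 2 of both genotypes. Immediate early genes, which are induced within minutes of a stimulus or of cell handling, also differed between libraries of 1 genotype. As log2 ratios of replicate 2 over replicate 1, Klf4 stood at 1.04 in the Dis3-/- pair and 0.87 in the wild-type pair, and Klf6 at 0.33 and 0.51. Fos, a subunit of the AP-1 factor, stood at 1.41 in the Dis3-/- pair and 0.35 in the wild-type pair, and Atf3 at 0.55 and 1.21. Egr2 stood at 2.80 in the Dis3-/- pair and -0.86 in the wild-type pair, with opposite signs. Of 18 immediate early genes 14 were higher in replicate 2 of the Dis3-/- pair and 12 in replicate 2 of the wild-type pair, with medians of 0.62 and 0.19. Of the 9 Klf genes 4 were higher in replicate 2 of the Dis3-/- pair and 8 in replicate 2 of the wild-type pair, with medians of -0.09 and 0.22. The part of this spread in the Klf comparison was not tested.

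**Figure D3:**
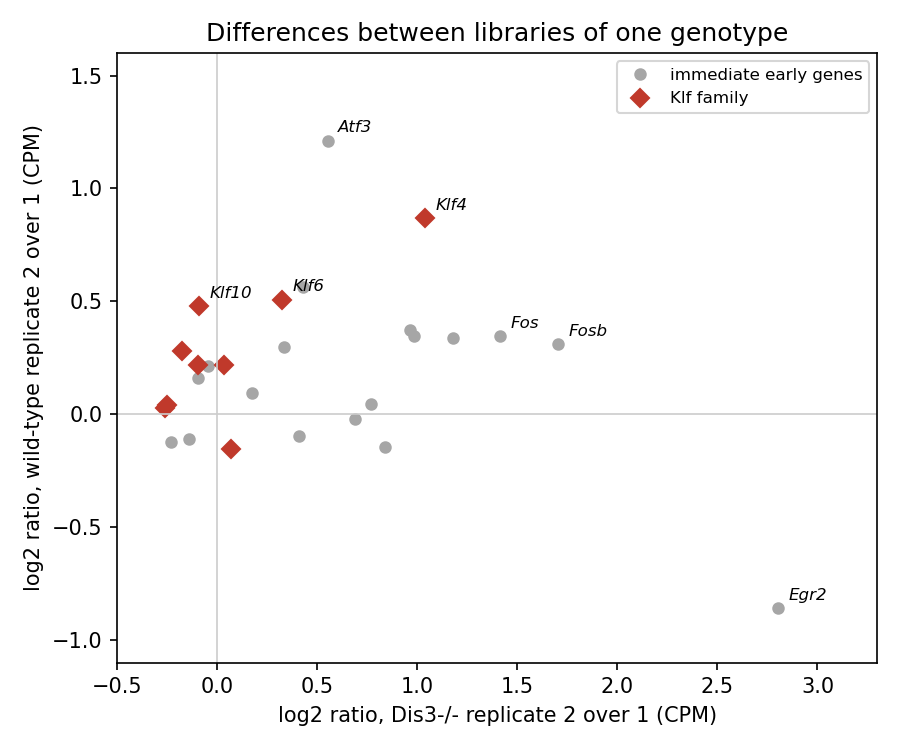
Log2 ratio of replicate 2 over replicate 1 in CPM, for the Dis3-/- pair (horizontal) and the wild-type pair (vertical), with the Klf genes in red and immediate early genes in grey. Klf4 lies at 1.04 and 0.87, away from the other Klf genes.

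Between genotypes, 3 of the 18 immediate early genes were called lower and 1 higher (median log2 fold change 0.13). The share called, 22.2%, was near the 23.0% over all tested genes. The nuclear receptor genes Nr4a1 (-0.52 ± 0.07 SE, edgeR adjusted p = 2.58e-04) and Nr4a2 (-0.54 ± 0.09 SE, edgeR adjusted p = 8.96e-04) and the survival gene Ier3 (-0.53 ± 0.10 SE, edgeR adjusted p = 2.63e-03) fell. Ier5 rose (0.58 ± 0.15 SE, edgeR adjusted p = 0.0119), though not without Dis3-/- replicate 2 (0.36, edgeR adjusted p = 0.143) and not on any of the 3 TPM settings (limma adjusted p = 0.134 to 0.196). The count was 12 without Dis3-/- replicate 1 (9 higher, 3 lower), 8 without wild-type replicate 2 (5 higher, 3 lower) and 6 without Dis3-/- replicate 2 (0 higher, 6 lower), so the split between directions turned with the library left out. Fos itself had 632 and 1686 CPM in Dis3-/- cells and 627 and 797 CPM in wild-type cells, and did not pass (0.70 ± 0.28 SE, edgeR adjusted p = 0.0868).

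In TPM the family covered a wide range of levels, in much the same order in both genotypes. Klf6 led with 187 and 240 TPM in Dis3-/- libraries, against 230 and 321 TPM in wild-type libraries. Klf10 came next with 142 and 137 TPM in Dis3-/- libraries, against 169 and 233 TPM in wild-type libraries. These genes gave 32.0% and 24.3% of the summed TPM of the 9 members in Dis3-/- replicate 1, and 36.3% and 20.7% in replicate 2. In wild-type replicate 1 the shares of Klf6 and Klf10 were 31.2% and 23.0%, and in replicate 2 they were 33.7% and 24.4%. In Dis3-/- cells Klf2 followed (78.3 to 81.3 TPM), then Klf13 (57.9 to 67.0 TPM) and Klf4 (39.9 to 84.3 TPM), whose ranges overlapped. In wild-type cells Klf13 (99.7 to 101 TPM) and Klf2 (89.4 to 102 TPM) overlapped, as did Klf6 and Klf10 above them, and Klf4 (46.2 to 83.0 TPM) and Klf9 below. Below them stood Klf9 (33.5 to 36.8 TPM in Dis3-/- and 49.96 to 59.7 TPM in wild-type cells), Klf3 (15.4 to 16.6 and 23.1 to 26.2 TPM), Klf12 (8.11 to 8.54 and 15.5 to 17.7 TPM) and Klf7 (5.19 to 6.03 and 11.4 TPM). These last 3 kept to ranges of their own in either genotype. The sum over the 9 members was 583 and 662 TPM in Dis3-/- libraries, against 737 and 952 TPM in wild-type libraries.

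Klf12 lies on chromosome 14 (99866181 to 100285891, GRCm38.p6), 0.766 Mb from Dis3 (99076634 to 99099780). Of 9 tested genes listed around them, Dis3 included, 1 was lower in Dis3-/- cells, Dis3 itself, and 1 was higher, Uchl3. The 22.2% called counts the gene deleted by design. It therefore cannot be compared with the 23.0% over all tested genes. Apart from Dis3, the genes nearest to it did not pass: Pibf1, which overlaps Dis3, had a log2 fold change of -0.30 ± 0.20 (SE, edgeR adjusted p = 0.32), Bora 0.31 ± 0.13 (edgeR adjusted p = 0.108) and Mzt1 -0.15 ± 0.11 (edgeR adjusted p = 0.339). The counts of Dis3 and Pibf1 had fractions that complement each other, such as 140.43 and 135.57 in Dis3-/- replicate 1. Reads were thus divided between these genes, and their values are not independent. On the far side of Klf12, Tbc1d4 at 2.34 Mb from Dis3 had 0.17 ± 0.11 (edgeR adjusted p = 0.294). Uchl3, a deubiquitinase gene at 2.55 Mb, rose to 30.8 and 26.4 CPM in Dis3-/- cells, against 18.0 and 18.3 CPM in wild-type cells (0.66 ± 0.17 SE, edgeR adjusted p = 0.0128). That call ended once Dis3-/- replicate 1 was dropped (0.55, edgeR adjusted p = 0.07) and under DESeq2 (adjusted p = 0.0683). Klf5, a family gene that stands between Dis3 and Klf12 at 0.199 Mb from Dis3, had 9 and 7 counts in Dis3-/- libraries, against 10 and 14 counts in wild-type libraries, too few for the test.

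**Figure D4:**
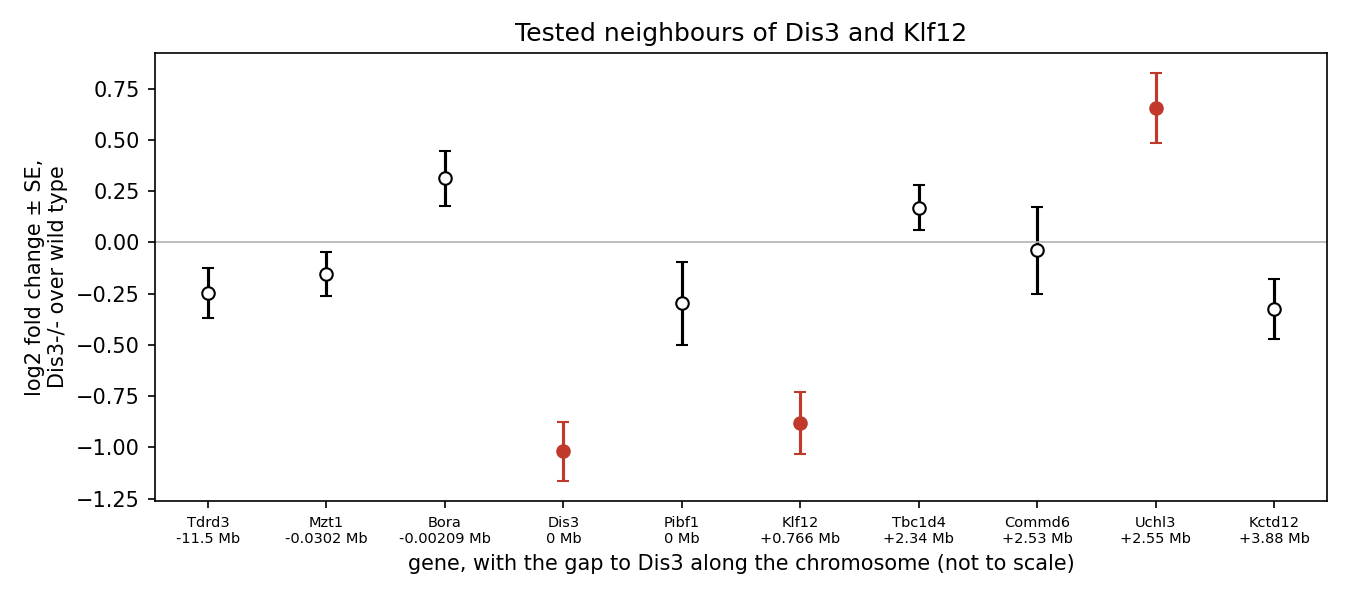
Log2 fold change ± SE (Dis3-/- over wild type) of the tested genes around Dis3 and Klf12, in chromosome order with the gap to Dis3; filled red points had an edgeR adjusted p below 0.05. Dis3 (-1.02) and Klf12 (-0.88) lie low, Pibf1 between them at -0.30, and Uchl3 (0.66) is the called gene above 0.

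Related genes are the other Klf genes and the Sp genes, which bind the same GC boxes. The tables hold 17 of them, of which 7 passed the count filter, and 1 of these was called lower and 0 higher (14.3%, beside 10.2% called lower over all genes; median -0.01). Sp4 had 37.4 and 44.6 CPM in Dis3-/- libraries, against 60.9 and 52.7 CPM in wild-type libraries (-0.47 ± 0.13 SE, edgeR adjusted p = 0.0202). Its call ended once wild-type replicate 1 was dropped (-0.36, edgeR adjusted p = 0.141), once Dis3-/- replicate 1 was dropped (-0.35, edgeR adjusted p = 0.112) and under DESeq2 (adjusted p = 0.0718). Sp1, the founding member, had 304 and 298 CPM in Dis3-/- cells and 299 and 306 CPM in wild-type cells (-0.01 ± 0.07 SE, edgeR adjusted p = 0.951). Klf11, the gene most akin to Klf10, had 95.9 and 78.5 CPM in Dis3-/- cells and 85.1 and 126 CPM in wild-type cells (-0.28 ± 0.15 SE, edgeR adjusted p = 0.213). Klf8, of the CtBP-binding class, stood at 0.00 ± 0.17 (SE, edgeR adjusted p = 0.994). Klf1, the erythroid factor, had 1 and 5 counts in Dis3-/- libraries, against 0 and 1 counts in wild-type libraries, and Sp5, Sp8 and Sp9 had 0 counts in all 4.

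A further list held genes that Klf proteins are known to regulate in lymphocytes, endothelium or other cells. It was chosen with earlier results of these data known, so its share of called genes does not test an excess. Of its 12 tested genes 7 fell (58.3%, beside 10.2% over all genes) and 1 rose, with a median log2 fold change of -0.37. Among them were trafficking genes that Klf2 activates in T cells. The sphingosine phosphate receptor gene S1pr1 had 56.6 and 34.2 CPM in Dis3-/- libraries, against 87.5 and 80.2 CPM in wild-type libraries (-0.89 ± 0.17 SE, edgeR adjusted p = 2.12e-03). Its value without Dis3-/- replicate 2 was -0.57. The integrin gene Itgb7 had 31.6 and 25.3 CPM in Dis3-/- libraries, against 43.7 and 48.9 CPM in wild-type libraries (-0.70 ± 0.15 SE, edgeR adjusted p = 3.92e-03). Klf2 itself was not called.

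Smad7, an inhibitor of TGF-beta signalling that Klf10 is known to repress, had 118 and 79.6 CPM in Dis3-/- libraries, against 208 and 202 CPM in wild-type libraries (-1.05 ± 0.13 SE, edgeR adjusted p = 1.13e-04). Ccl5, a chemokine gene that Klf13 activates in T cells, had 44 and 288 counts in Dis3-/- libraries, against 73 and 57 counts in wild-type libraries, and did not pass (1.43 ± 0.52 SE, edgeR adjusted p = 0.063). Dis3-/- replicate 2 alone was high. The protease gene Plau rose, with 30 and 15 counts in Dis3-/- libraries, against 2 and 4 counts in wild-type libraries (edgeR adjusted p = 8.42e-03). The call of Plau ended once wild-type replicate 1 was dropped (edgeR adjusted p = 0.0638) and once Dis3-/- replicate 1 was (edgeR adjusted p = 0.167). Further called targets were Eng, Thbd and Cdkn1a, all lower; they lay beyond the 5 smallest p and were named after their values were seen. The call of Eng ended on leaving out wild-type replicate 1 (then edgeR adjusted p = 0.0532) or Dis3-/- replicate 1 (0.069), that of Thbd without replicate 1 of wild type (0.123) or Dis3-/- replicate 2 (0.117), and that of Cdkn1a without wild-type replicate 2 (0.185; value -0.32) or Dis3-/- replicate 2 (0.366; value -0.19). The value of Cdkn1a without Dis3-/- replicate 1 was -0.67. Under DESeq2 neither Thbd (adjusted p = 0.129) nor Cdkn1a (adjusted p = 0.111) was called. On the 3 TPM settings Plau (limma adjusted p = 0.0696 to 0.0752) and Cdkn1a (0.0719 to 0.122) were not called.

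Of 28 partner and upstream genes, all tested, 8 fell (28.6%, beside 10.2% called lower over all genes) and 1 rose, with a median of -0.18. This list too was chosen with earlier results known, so the share does not test an excess. Tgfbr2, the TGF-beta receptor chain upstream of Klf10, had 96.4 and 90.5 CPM in Dis3-/- libraries, against 145 and 164 CPM in wild-type libraries (-0.73 ± 0.09 SE, edgeR adjusted p = 1.13e-04). Foxo1, which activates Klf2 in T cells, fell as well (-0.65 ± 0.13 SE, edgeR adjusted p = 2.85e-03), and so did Foxo3 (-0.39 ± 0.10 SE, edgeR adjusted p = 0.0128). The acetyltransferase genes Kat2b (-0.49 ± 0.10 SE, edgeR adjusted p = 4.01e-03) and Crebbp (-0.30 ± 0.07 SE, edgeR adjusted p = 8.06e-03), whose products act as coactivators of Klf proteins, were lower too. The Foxo3 call ended once wild-type replicate 1 (then edgeR adjusted p = 0.12) or Dis3-/- replicate 1 (0.0506) was dropped.

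The other called partner genes, named after their values were seen, were the coactivator gene Ep300 and the Mef2 genes Mef2c and Mef2d, all lower, and the deacetylase gene Hdac2, which was higher. The call of Ep300 ended on dropping replicate 1 of wild type (then edgeR adjusted p = 0.0834), its replicate 2 (0.0789) or Dis3-/- replicate 1 (0.0516). That of Mef2c ended without wild-type replicate 1 (0.0622) or Dis3-/- replicate 2 (0.238; value -0.17), and its value without Dis3-/- replicate 1 was -0.51, against -0.33 with all 4 libraries. That of Mef2d ended without replicate 1 of wild type (0.0854), its replicate 2 (0.16) or Dis3-/- replicate 2 (0.287; value -0.21). That of Hdac2 ended without wild-type replicate 2 (0.156) or Dis3-/- replicate 1 (0.211; value 0.26). Under DESeq2 neither Mef2d (adjusted p = 0.158) nor Hdac2 (adjusted p = 0.102) was called. On the 3 TPM settings Hdac2 (limma adjusted p = 0.158 to 0.208) and Mef2c (0.0535 to 0.0868) were not called. The corepressor genes used by the family did not pass: Ctbp1 (0.03 ± 0.09 SE, edgeR adjusted p = 0.829), Ctbp2 (0.09 ± 0.11, edgeR adjusted p = 0.581), Sin3a (-0.07 ± 0.08, edgeR adjusted p = 0.594) and Sin3b (-0.02 ± 0.10, edgeR adjusted p = 0.921).

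**Figure D5:**
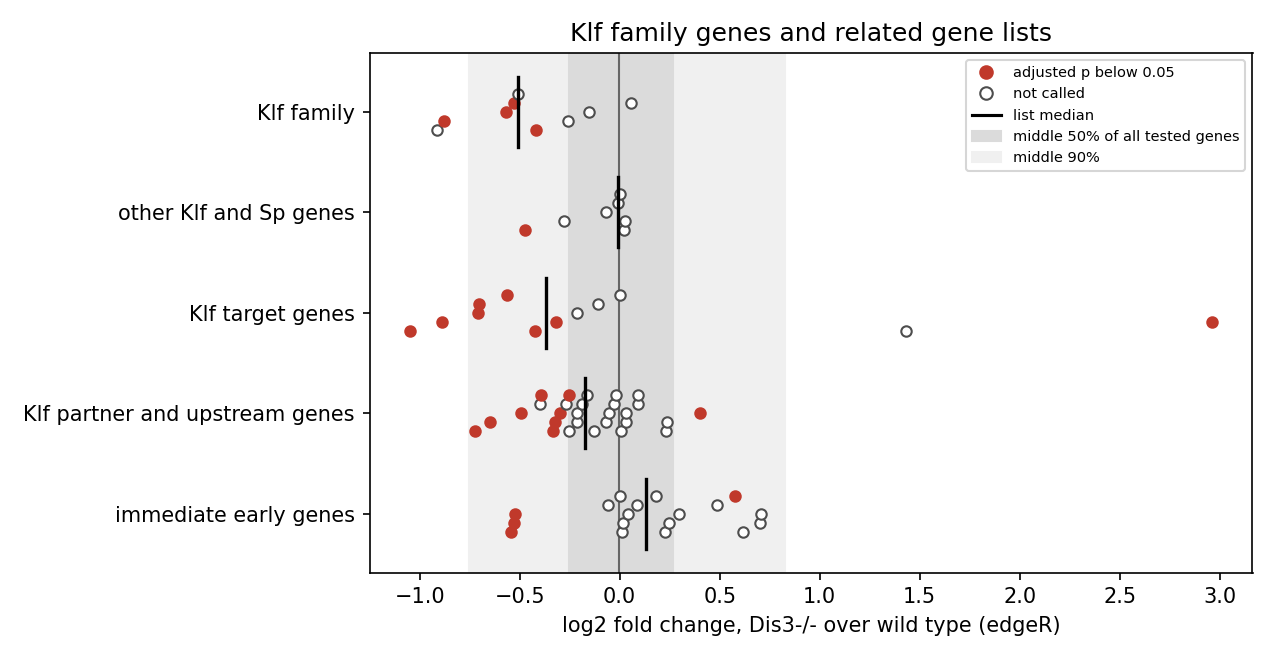
Log2 fold change (Dis3-/- over wild type) of every tested gene in the Klf family and 4 related lists, with list medians as bars and the middle 50% and 90% of all tested genes as grey bands. The medians are -0.51 for the Klf family, -0.01 for other Klf and Sp genes, -0.37 for target genes, -0.18 for partner and upstream genes and 0.13 for immediate early genes.

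The genes whose pattern over the 4 libraries was most like that of Klf13 were Glul, Ypel1 and Mafk, out of 9424 candidates with a mean of at least 10 CPM. Likeness was the root mean square difference of log2 CPM after centring on the mean of each gene, and was 0.0172 for Glul, 0.0211 for Ypel1 and 0.0221 for Mafk. Glul, which encodes glutamine synthetase, had 297 and 241 CPM in Dis3-/- libraries, against 391 and 405 CPM in wild-type libraries. Mafk, a small Maf factor gene, had 114 and 95.9 CPM in Dis3-/- libraries, against 159 and 161 CPM in wild-type libraries.

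The promoters of called members are set beside that of Klf2, since Klf proteins bind GC-rich boxes and the called members moved in 1 direction. RefSeq promoter windows (GRCm38.p6) were at hand for 8 of the 9 members, Klf10 being the other one, and the 250 bases before the start are used. Windows for Klf13 (chr7:63938916-63939165 on the minus strand), Klf9 (chr19:23140976-23141225 on the plus strand), Klf12 (chr14:100149797-100150046 on the minus strand) and Klf2 (chr8:72318812-72319061 on the plus strand) follow, each 5′ to 3′ towards the gene. The Klf12 window precedes a start inside the annotated span of the gene. Capitals mark the GC box CCGCCC, the CACCC box CACCC, the half-site TGACG of cyclic AMP response elements, each on both strands, and the MEF2 consensus.
Klf13: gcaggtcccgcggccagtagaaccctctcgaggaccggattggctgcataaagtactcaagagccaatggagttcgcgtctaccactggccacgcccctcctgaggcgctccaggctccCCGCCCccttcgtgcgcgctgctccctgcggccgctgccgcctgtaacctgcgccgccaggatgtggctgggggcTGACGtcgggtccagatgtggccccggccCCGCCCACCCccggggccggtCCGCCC
Klf9: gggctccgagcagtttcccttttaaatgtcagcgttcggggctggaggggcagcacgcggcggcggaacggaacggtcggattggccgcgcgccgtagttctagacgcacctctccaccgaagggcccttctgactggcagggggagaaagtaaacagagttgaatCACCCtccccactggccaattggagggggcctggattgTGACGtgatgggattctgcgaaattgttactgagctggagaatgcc
Klf12: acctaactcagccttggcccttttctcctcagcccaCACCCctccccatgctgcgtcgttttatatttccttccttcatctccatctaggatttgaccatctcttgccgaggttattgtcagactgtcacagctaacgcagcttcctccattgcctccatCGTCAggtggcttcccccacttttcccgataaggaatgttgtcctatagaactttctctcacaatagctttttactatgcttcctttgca
Klf2: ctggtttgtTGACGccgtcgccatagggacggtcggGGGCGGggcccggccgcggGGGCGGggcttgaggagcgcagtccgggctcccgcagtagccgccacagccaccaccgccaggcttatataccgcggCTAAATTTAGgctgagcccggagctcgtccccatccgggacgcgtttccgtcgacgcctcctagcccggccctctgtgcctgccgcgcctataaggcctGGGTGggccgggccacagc

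These windows differ in composition. The GC box letters occur 3 times in Klf13, 2 times in Klf2 and not in Klf9 or Klf12, and they occur in 32.7% of all 32851 promoter windows of the same length. The CACCC letters occur once in each of the 4, and in 52.0% of all windows; in Klf13 that match overlaps a GC box. The TGACG letters occur once in each of the 4, and in 17.8% of all windows. The MEF2 consensus occurs once, in Klf2, at 118 bases before the start, and in 2.92% of all windows. The GC content is 71.6% in Klf13, 59.6% in Klf9, 48.0% in Klf12 and 71.2% in Klf2, with a median of 52.4% over all windows. Of the windows not shown, that of Klf3 holds 6 GC boxes and 5 CACCC boxes, that of Klf4 4 GC boxes and no CACCC box, that of Klf6 1 GC box and that of Klf7 1 GC box and 3 CACCC boxes. The TGACG letters occur once in the Klf4 window and not in those of Klf3, Klf6 and Klf7. A match of letters is a description of the window and not a measured binding site.

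The members also differ in the build of their transcripts (GENCODE M21, longest coding sequence). The pentamer ATTTA, the core of the AU-rich elements known from short-lived mRNAs, occurs in the 3′ untranslated region of all 9, and in 61.7% of 20568 coding genes. Its density is 0.582 per kb in Klf13, 0.889 in Klf12, 2.48 in Klf9 and 2.68 in Klf10, the 4 called genes. It is 1.87 in Klf3, 1.36 in Klf2, 1.02 in Klf4, 2.25 in Klf6 and 2.87 in Klf7, with a median of 1.13 per kb over all coding genes. The densities of called and other members thus overlap. The span of the gene is 414048 bases for Klf12 and 52565 for Klf13, against 2624 for Klf2.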

How the data were processed

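RNA-seq libraries (RamDA-seq with Nextera XT, per the labels' protocols) were analysed from 2 deposited tables. Tools listed in the submitters' processing notes are RSEM 1.3.3, STAR 2.7.8a and Trim Galore 0.6.6, with mm10 as build; neither their roles, nor annotation, nor strand setting is stated there. One table deposited by the authors held expected counts per gene, not normalized, and the other, also deposited by the authors, TPM. After rounding to whole numbers, the counts were tested with edgeR 4.0.16 (R 4.3.3): filterByExpr (minimum count 10, minimum total 15), TMM scaling, glmQLFit and glmQLFTest (2-sided), p-values adjusted by Benjamini-Hochberg over 12244 genes and a threshold of 0.05. The SE was taken as the absolute log2 fold change divided by sqrt(F), and 95% intervals use it with the degrees of freedom of the fit.

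Depth was 6085367 to 6818535 counts per library, and the floors of counts cover counting error only. The 95% intervals of log2 fold changes also include the spread between libraries as estimated in the fit. Nothing beyond the design text says how replicates were separated, so p-values measure the spread between these libraries. Alternatives were DESeq2 1.42.0, limma-voom (limma 3.58.1), edgeR with DESeq2 size factors or robust empirical Bayes, no filter on low counts, limma on log2(TPM + 1) or log2(TPM + 0.1) (mean of at least 1 TPM in a genotype, or no filter), the replicate number as a block, and each library left out; in the last case the lone library is assumed to vary like the other group.

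The members and gene lists were chosen with earlier results of these data known. By rule all 9 members were named, of each list the called genes up to 5 with the smallest p, and the 3 genes most like the member with the smallest p; corepressor genes, unaffected family genes, Fos, Atf3 and chromosome 14 genes outside the calls were named after their values were seen. Diaph3, a listed gene of chromosome 14, was not analysed here, and some listed genes that enter the counts are not reported by name.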

Additional observations from a re-analysis of the deposited data

How the results depend on the processing

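Klf13 was called lower under each of the 13 alternatives (log2 fold change -0.70 to -0.45) and Klf12 under 12 (-0.98 to -0.77). The exception was limma on log2(TPM + 1) without a filter, where Klf12 (-0.91, adjusted p = 0.0599), Klf9 (-0.62) and Klf10 (-0.51) were not called and Klf13 alone was. On log2(TPM + 1) and log2(TPM + 0.1) Klf10 (-0.51 in both) lost its call and Klf7 (-0.91 and -1.01) gained one, as did Klf3 on log2(TPM + 0.1) (-0.61). Klf4 turned below 0 on all TPM settings (-0.091, -0.093 and -0.091). TPM moved the median of all genes to -0.108 (log2(TPM + 1)) and -0.115 (log2(TPM + 0.1)), beside medians of -0.589 and -0.615 for the members. Without a filter on low counts Klf3 (-0.51) and Klf6 (-0.26) were called, and Klf10 was not called with DESeq2 (-0.42) or robust edgeR (-0.42). The cause of these changes was not tested.

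Same-numbered libraries did not deviate together (correlation -0.0283 over genes), and no label pairs them. With the replicate block 5 members were called, Klf6 (-0.25) being the added one, and 7 immediate early genes; Mef2d and Cdkn1a lost their calls. With a library left out, the called members numbered 2 to 5 and log2 fold changes ranged from -0.56 to 0.55 for Klf4, -0.49 to 0.016 for Klf6, -0.66 to -0.39 for Klf9 and -0.64 to -0.16 for Klf10; immediate early calls numbered 5 to 12.

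Counts of calls that moved by over 1.5 times from the main values (4 members, 1 other Klf or Sp gene, 9 partner, 8 target, 4 immediate early and 2 chromosome 14 genes, 2811 genes in all) were as follows. DESeq2 called 0 other Klf and Sp genes, 1 chromosome 14 gene and 1742 genes in all. Without a filter on counts 2 other Klf and Sp genes and 8 immediate early genes were called. On log2(TPM + 1) 0 other Klf and Sp, 5 target and 1730 genes in all were called, on log2(TPM + 0.1) 0 other Klf and Sp genes, and on log2(TPM + 1) without a filter 1 member, 0 other Klf and Sp, 4 partner, 3 target and 950 genes in all. Klf7 had the fewest counts of the members, 18 to 40 per library.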
